A study of Mus musculus with 6 samples.

Results

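The members are the star (passenger) strands of mouse miRNAs, read by 105 capture probes of 597 that name a mouse miRNA. They were chosen by name alone: a probe entered when one of its names was a mouse miRNA ending in an asterisk. Of 113 such probes, 8 were left out, namely the star forms of miR-9, miR-17, miR-30e and miR-124 and of the repeat families miR-297, miR-466, miR-467 and miR-669. A guide probe, which has the same name without the asterisk, was on the array for 104 of the 105 star probes. Only miR-125b* had none. This gave 105 pairs of a star with its guide over 100 guide probes, 95 with the same name and 10 in which the gene-copy number of the star (miR-24-1*, miR-24-2*) had to be dropped to find the guide.

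The study set retinal cells of naive mice, with 3 samples, against retinal cells of mice with experimental autoimmune uveoretinitis (EAU), an immune attack on the retina driven by T cells, also with 3 samples. EAU samples were taken on day 14. All mice were of the strain B10.RⅢ and aged 8 weeks, and the labels give no further treatment and no number of mice per sample. A capture array of locked nucleic acid probes took the Hy3-dyed RNA of 1 sample (800 ng) and a Hy5-dyed pool that blends all samples. Values are log2(Hy3/Hy5), so a positive difference means more of a strand in EAU, relative to the pool. In such bulk samples, fewer cells of a type and less RNA per cell cannot be told apart.

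A miRNA gene is transcribed as a hairpin, from which the enzymes Drosha and Dicer cut a short duplex. One strand of the duplex, the guide, is usually kept by an Argonaute protein and directs the silencing of messenger RNAs through its seed, while the other, the passenger or star strand, is usually degraded. Because both come from one transcript, the star strand is often read beside the guide as a second view of the same hairpin, and for some hairpins the star strand is itself loaded and active. Argonaute tends to keep the strand whose 5′ end is less tightly paired and that begins with U or A.

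The sequences below are the mature strands of the hairpins on which the results turn, 5′ to 3′, from RefSeq (mouse assembly GRCm38.p6), with the seed (bases 2 to 8) in capitals. The first is the star strand that rose in EAU under most processings, with its guide.
miR-881*: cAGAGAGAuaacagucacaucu
miR-881: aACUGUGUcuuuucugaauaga
The next 4 hairpins had a star strand above the blank spots on all 6 arrays that moved differently from its guide.
miR-183*: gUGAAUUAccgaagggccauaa
miR-183: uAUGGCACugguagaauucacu
miR-21*: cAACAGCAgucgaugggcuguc
miR-21: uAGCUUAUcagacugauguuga
miR-503*: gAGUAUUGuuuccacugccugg
miR-503: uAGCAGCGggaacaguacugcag
miR-300*: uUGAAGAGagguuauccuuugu
miR-300: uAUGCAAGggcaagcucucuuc
The following stars come from pairs of hairpin copies that make 1 guide each, or passed the test at low brightness.
miR-24-1*: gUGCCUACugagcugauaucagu
miR-24-2*: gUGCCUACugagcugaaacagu
miR-181a-1*: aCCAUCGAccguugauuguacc
miR-181a-2*: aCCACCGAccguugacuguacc
miR-31*: uGCUAUGCcaacauauugccauc
The last are let-7 stars, which were at the level of the blank spots while their guides were bright.
let-7a*: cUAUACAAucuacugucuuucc
let-7f*: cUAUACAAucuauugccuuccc
let-7g*: aCUGUACAggccacugccuugc

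Star names could be matched to a RefSeq hairpin with both arms for 88 of 106 names. In these, the star lay on the 3′ arm in 53 and on the 5′ arm in 35. Of 83 distinct guide sequences, 48 (57.8%) began with U, against 16 of 87 distinct star sequences (18.4%). The stars began most often with C (34 of 87, 39.1%). The first 4 bases held 2.42 A or U on average in the guides and 1.98 in the stars, and in 43 hairpins the guide had more of them, in 22 the star and in 23 both as many. Star strands had a median GC content of 50% and guides of 43.5%. Seeds were shared by let-7a*, let-7b*, let-7c-2* and let-7f* (UAUACAA), by miR-24-1* and miR-24-2* (UGCCUAC), by miR-30c-1* and miR-30c-2* (UGGGAGA), by miR-200a* and miR-200b* (AUCUUAC) and by miR-302b* and miR-302c* (CUUUAAC). No matched guide carried any of these seeds. Let-7a* and let-7c-2* are identical over 22 bases and share 1 probe, while miR-181a-1* and miR-181a-2* differ at 2 of 22 positions and have different seeds. These shares describe the sequences and were not tested.

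The arrays were dim. The median spot read 56.2 to 94.8 in the Hy3 channel, where the level taken as the upper edge of the blank and negative-control spots lay between 65.4 and 107. The naive arrays were scanned on 1 day and the EAU arrays on another, so that the scan day cannot be told apart from the group. Of 6 retinal markers, 6 exceeded the blanks on every array, with a summed raw brightness of 48080 to 54200 in naive and 6753 to 19440 in EAU. Of these 6, 2 passed the test (miR-9 and miR-183, both lower), and miR-124, the brightest, did not (-0.69, adjusted p = 0.520). Of 6 leukocyte markers, 1 rose (miR-142-3p), miR-155 was above the blanks on no array, and the summed raw brightness was 466.2 to 589.8 in naive and 714.9 to 1508 in EAU. The part of these shifts in the results below was not tested.

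Most star strands were not detectable. On all 6 arrays 27 of the 105 star probes (25.7%) lay above the blanks, on no array 57 (54.3%), and on 1 to 5 arrays 21. Among the 100 guide probes these numbers were 42 on all arrays (42%) and 26 on none (26%), and among all 597 mouse probes 197 (33%) and 224 (37.5%). By array, 32, 40 and 31 star probes exceeded the blanks in the naive replicates 1 to 3, and 38, 41 and 31 in the EAU replicates. The groups overlapped, with 34.3 ± 4.9 in naive and 36.7 ± 5.1 in EAU (mean ± SD, n = 3 per group; p = 0.8 by a two-sided exact permutation test, where 3 against 3 allows no p below 0.1). The guides gave 55.0 ± 5.3 and 56.0 ± 5.3 (exact permutation test, p = 0.7). In the Hy5 channel, which holds the pool on every array, 30, 40 and 30 star probes exceeded the blanks in naive and 31, 34 and 18 in EAU. EAU replicate 3 was the lowest. The shares depended on the blank rule. With the blank level set 5 in place of 3 median absolute deviations above the median, 20 stars were above on all arrays and 61 on none. The guides then numbered 34 and 34. With every spot of a probe required above the blank level, the numbers were 23 and 68 for stars and 30 and 43 for guides.

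**Figure D1:**
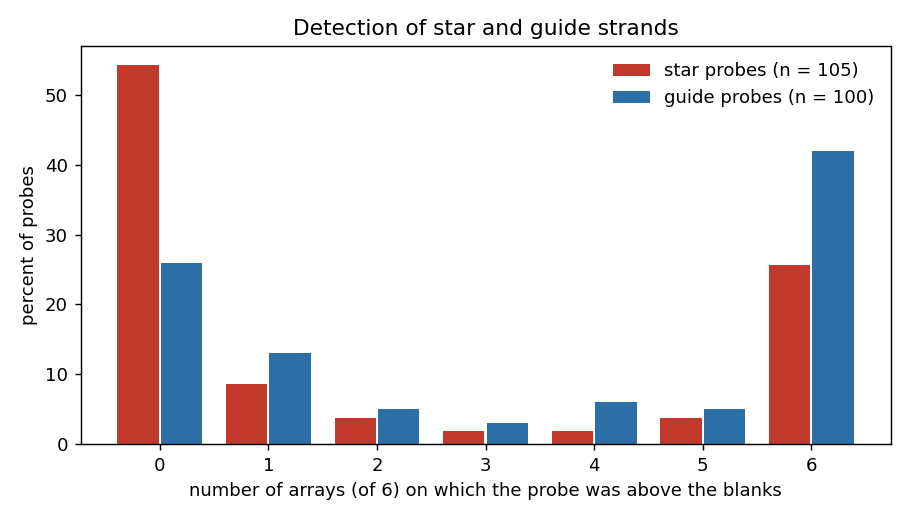
Share of probes (percent, vertical axis) by the number of arrays on which the probe was above the blanks (horizontal axis, 0 to 6), for 105 star probes (red) and 100 guide probes (blue). The stars peak at 0 arrays (54.3%) and the guides at 6 (42%) under the main blank rule, and the guide peak at 6 did not hold under stricter rules.

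Star and guide were not always detected as their names would have it. Of the 105 pairs, 11 had both arms above the blanks on all 6 arrays, 16 the star alone and 35 the guide alone. In 6 of the 16 the guide was above the blanks on no array, and these were miR-34c*, miR-141*, miR-200b*, miR-200c*, miR-483* and miR-485*, all 6 named after their detection was seen. In 22 pairs the guide was above the blanks on all arrays and the star on none, among them let-7a, let-7f, let-7g, let-7i, miR-27a, miR-29a, miR-29c, miR-150 and miR-191. Capture probes differ in how strongly they bind, so brightness can only be set side by side. The guide spot was the brighter in 73 pairs and the star spot in 32.

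The brightest star probe was miR-503*, with a mean raw Hy3 signal of 2384 over the 6 arrays beside 376 for miR-503, a member of the miR-15/16 family. MiR-433* read 1419, and its guide 119. MiR-24-1* read 1349 and miR-24, one of the guides of the miR-23/27/24 clusters, 330. MiR-138* read 1100 beside 97.4 for the neuron-enriched miR-138, and miR-300* 911 beside 105. The other stars among the 12 brightest were miR-872* (678), miR-183* (437), miR-30b* (403), miR-200b* (369), miR-99b* (349), miR-294* (347) and miR-485* (298). The brightest guide of the 100, let-7c, read 1117, below 3 of the star probes. MiR-24-2*, which shares its first 16 bases with miR-24-1*, was above the blanks on no array (mean raw signal 52.8).

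**Figure D2:**
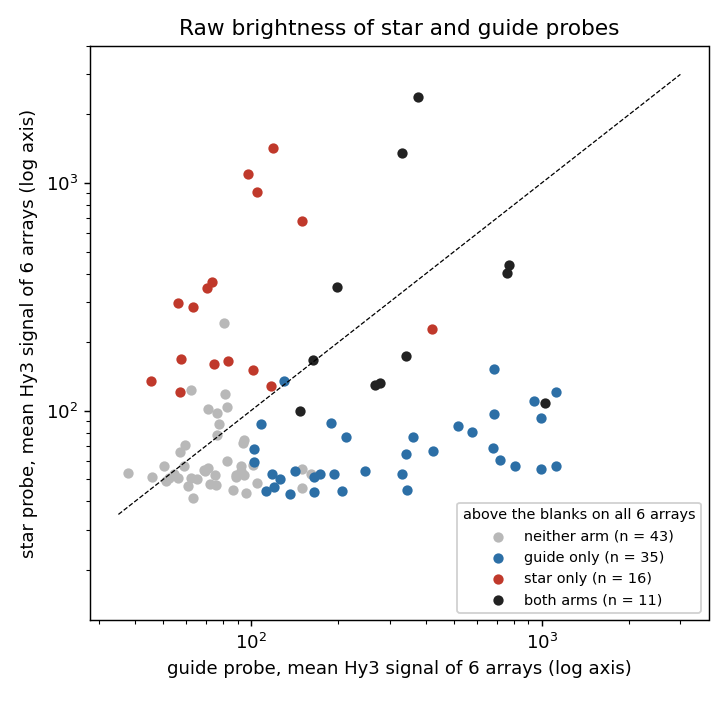
Mean raw Hy3 signal over the 6 arrays of the guide probe (horizontal, log axis) and the star probe (vertical, log axis) for 105 pairs, coloured by which arm was above the blanks on all 6 arrays; the dashed line marks equal signal. The 35 pairs with only the guide above lie along the bottom. Of the 16 with only the star above, most lie toward the left, and miR-21 lies far to the right with a guide signal of 420. One grey point at a star signal of 242 is miR-200a*, whose mean includes a spot marked as an outlier.

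Few star strands passed the test of EAU against naive. In limma with Benjamini-Hochberg adjustment over all 595 tested mouse probes, 5 of 105 star probes passed an adjusted p of 0.05 (4.76%), against 77 of 595 (12.9%) over all mouse probes and 19 of 100 guides. Of the 5 stars, 2 were higher and 3 lower in EAU, while over all mouse probes 25 (4.2%) were higher and 52 (8.74%) lower, and of the 19 guides 4 were higher and 15 lower. The split of all probes turns with the scaling, to 21 higher and 4 lower with no normalization within arrays, 26 and 15 with the scanner software's processed signals and 42 and 40 in the deposited value table. In 37 star probes the values of naive and EAU had no overlap (35.2%), against 46.6% over all mouse probes. The median difference, EAU minus naive, was -0.0008 on the log2 scale over the stars, -0.07 over the guides and -0.01 over all tested probes. The median size of the difference was 0.034 for stars, 0.10 for guides and 0.066 for all tested probes, but 0.15 for the 27 stars above the blanks on all arrays and 0.25 for the 42 such guides. Star differences ran from -0.38 (miR-712*) to 0.41 (miR-300*), so that 0 of 105 reached 1.5-fold, against 6 of 100 guides. That contrast depended on the processing. Past 1.5-fold were 7 stars and 7 guides with median centring, 10 and 9 with no normalization, 12 and 27 with processed signals and, of 102 stars and 100 guides, 11 and 25 in the deposited table. A constant of 50 added in the background correction shrinks the differences of dim probes.

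**Figure D3:**
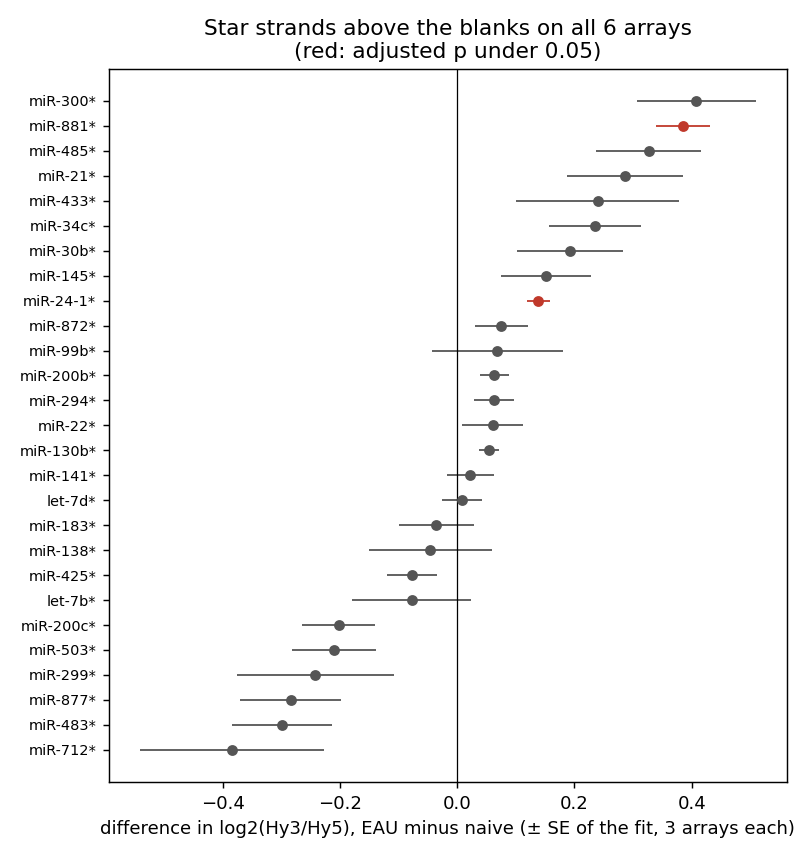
Difference in log2(Hy3/Hy5), EAU minus naive, with the standard error of the fit (3 arrays each), for the 27 star probes above the blanks on all 6 arrays. MiR-881* (0.38) and miR-24-1* (0.14), in red, had an adjusted p under 0.05; the others span -0.38 to 0.41.

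MiR-881*, the passenger of a hairpin in an X-linked group that is known from testis, rose. Its log2 ratio was -0.14, -0.17 and -0.12 in naive and 0.15, 0.33 and 0.24 in EAU. All 3 EAU arrays lay above all 3 naive arrays. The rise was 1.31-fold (log2 difference 0.38, SE 0.05; limma, adjusted p = 0.0149). It passed in 9 of 12 other processings, in which the difference ran from 0.38 to 1.35, and lost the call with median centring (0.86, adjusted p = 0.094), with no normalization (0.93, adjusted p = 0.0934) and with the replicate block (adjusted p = 0.0776). With 1 array left out it did not pass in 3 of 6 fits, those lacking naive replicate 1, naive replicate 2 and EAU replicate 3 (adjusted p = 0.066, 0.0598 and 0.0631). Its guide, miR-881, lay at -0.01, 0.00 and 0.02 in naive and at 0.14, 0.33 and 0.11 in EAU, also without overlap, and did not pass (0.19, SE 0.06, adjusted p = 0.104). The 3 other matched stars of this group, a chain of hairpins with gaps of at most 10 kb, were miR-463*, miR-470* and miR-742*. All were above the blanks on no array.

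MiR-24-1*, the passenger of one of the hairpins that make miR-24, was higher by 0.14 (SE 0.02; adjusted p = 0.0177). The naive arrays read 0.29, 0.26 and 0.29 and the EAU arrays 0.44, 0.42 and 0.39. The groups did not overlap, at a difference of 1.10-fold. It passed in 2 of 11 other processings. Median centring gave 0.66 and arrays left as scanned 0.73, larger differences that did not pass (adjusted p = 0.303 and 0.269). The sample channel by itself gave 0.04 (adjusted p = 0.988), and the median of the 4 spots in place of their mean gave 0.17 (adjusted p = 0.265). Leaving out naive replicate 1, naive replicate 2 or EAU replicate 3 also ended the call (adjusted p = 0.0854, 0.0612 and 0.0539). MiR-24 itself did not pass (-0.20, SE 0.14, adjusted p = 0.353).

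The 3 stars with a lower value in EAU were at the level of the blanks. MiR-31* differed by -0.13 (SE 0.02; adjusted p = 0.0179) and was above the blanks on naive replicate 2 only. Its 4 spots on an array were uneven. On the EAU arrays 1 spot read 168, 153 and 138 where the median of the others was 47.8, 58.9 and 46.1. The brightest Hy5 spot read 60.8, 53.4 and 52.8 there, against a median of 32.5, 34.9 and 33.5 for the others. Spots were ranked in each channel separately, so whether it was the same spot was not tested. Naive replicate 2 had the largest ratio of the brightest spot, 239, to the median of the others, 55.3 (Hy5 80.9 and 34.2). More than 1 spot exceeded the blank level there, since at least 50% must for a probe to be above the blanks. On naive replicates 1 and 3 the brightest spot read 61.4 and 52.1. With the median of the spots the difference was -0.07 (adjusted p = 0.0909). MiR-181a-2* was alike, with 1 spot at 160, 174 and 254 on the EAU arrays where the others had a median of 51.4, 66.2 and 50.4. On naive replicate 2 its brightest spot read 4.34 times the median of the others. It was above the blanks there, so more than 1 spot exceeded the blank level. The difference of miR-181a-2*, -0.15 (SE 0.03, adjusted p = 0.0403), became -0.05 (adjusted p = 0.170) with the median of the spots. In the sample channel alone the sign of both turned, to 0.03 for miR-31* and 0.02 for miR-181a-2*. MiR-181a-1*, above the blanks on no array and with even spots, differed by -0.07 (SE 0.02; adjusted p = 0.0499) and lost the call without any one array.

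A spot more than 2 times as bright as the median of the probe's other spots occurred on at least 1 array in 21 of 105 star probes, and on all 3 EAU arrays in 8 of them. Of the stars named by rule, 7 were among the 21: miR-31*, miR-181a-2*, miR-30a*, miR-30c-2*, miR-200c*, miR-712* and miR-34c*. Taking the median of the spots, a choice made after seeing these values, left 1 of the 5 star calls, that of miR-881*.

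Other bright stars moved by as much without passing. MiR-300*, from the imprinted Dlk1-Dio3 region, read 0.13, 0.41 and 0.10 in naive and 0.50, 0.68 and 0.68 in EAU, without overlap (difference 0.41, SE 0.10; adjusted p = 0.0584). MiR-485* of the same region read 0.04, 0.03 and 0.27 in naive and 0.34, 0.56 and 0.42 in EAU (difference 0.33, SE 0.09; adjusted p = 0.0698). MiR-300* passed in 3 of 12 other processings and miR-485* in 3. MiR-21* (0.29, adjusted p = 0.108), miR-433* (0.24, adjusted p = 0.266) and miR-34c* (0.23, adjusted p = 0.1) complete the 6 largest positive differences, with miR-881*. MiR-433* has the opposite sign in the sample channel alone (-0.76).

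On the other side stood miR-712* (-0.38, adjusted p = 0.152), miR-483* (-0.30, adjusted p = 0.0736), miR-877* (-0.28, adjusted p = 0.0815), miR-299* (-0.24, adjusted p = 0.249), miR-503* (-0.21, adjusted p = 0.104) and miR-200c* (-0.20, adjusted p = 0.0852). All but miR-503* had low ratios in naive already, between -0.37 for miR-200c* and -0.81 for miR-712*, which means that the pool channel was the brighter after normalization. The sign of miR-483*, miR-200c* and miR-503* turned without loess, and that of miR-712* and miR-200c* in the deposited table. MiR-712* and miR-200c* had an uneven spot on naive replicate 2 and on EAU replicates 1 and 3. None of the remaining bright stars passed, with miR-138* at -0.05, miR-872* at 0.08, miR-183* at -0.04, miR-30b* at 0.19, miR-200b* at 0.06, miR-99b* at 0.07 and miR-294* at 0.06.

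Of the star probes, 2 were above the blanks on all EAU arrays and no naive array, a pair named after its values were seen. MiR-16* differed by 0.10 (adjusted p = 0.283) and miR-10a* by 0.02 (adjusted p = 0.745). Neither passed the test, the raw signals of both overlapped between the groups, and miR-10a* had uneven spots.

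Whether a star changed differently from its guide was tested on the difference of the 2 log2 ratios on each array, over all 182 tested pairs of hairpin arms. Of 105 star and guide pairs, 17 passed (16.2%), against 24 of 182 (13.2%) over all arm pairs. Outside the star rule 7 of 77 tested pairs passed (9.09%). Star minus guide was called above 0 in 14 of the 105 and below 0 in 3. Over all arm pairs 20 were called above 0 (11%) and 4 below 0 (2.2%), counts that include the 17. Most pairs outside the star rule are the 3p arm minus the 5p arm, so their sign is not that of star minus guide. In 14 of the 17 the guide itself had passed the test of EAU against naive, and in 1 the star, miR-881*. In none had both. The star was above the blanks on no array in 6 of the 17 and on 1 to 5 arrays in 5, so that most of the called differences rest on the guide. In miR-16 (star 0.10, guide -0.14) and miR-127 (star 0.05, guide -0.12), among others, the arms had opposite signs. Neither of these stars passed (adjusted p = 0.283 and 0.188), and miR-127* was above the blanks on no array. Both arms were above the blanks on all arrays in 4, those of miR-183, miR-145, miR-503 and miR-881. Across all 105 pairs the change of the star and that of the guide had a Pearson correlation of 0.12, a description over pairs that share arrays and in part guides. Over the 11 pairs with both arms above the blanks on all arrays it was -0.18 (Spearman -0.26), and 4 of the 11 had the same sign.

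MiR-183, of the photoreceptor-rich miR-183/96/182 cluster, fell while its star did not pass. The guide read 0.90, 1.05 and 1.03 in naive and -0.84 and 0.06 in EAU, where EAU replicate 1 has no value because of outlier spots. MiR-183* read 0.38, 0.50 and 0.59 in naive and 0.39, 0.44 and 0.53 in EAU, with overlap. The star changed by -0.04 (SE 0.06, adjusted p = 0.724) and the guide by -1.38 (adjusted p = 0.0483), and the difference between them was 1.38 (SE 0.24; adjusted p = 0.0381). With outlier spots kept, all 6 arrays enter and the difference is 1.45 (adjusted p = 0.0178). It passed in 10 of 11 other processings but not without naive replicate 1, 2 or 3 (adjusted p = 0.108, 0.124 and 0.0752). Only 4 fits with 1 array left out could be made, since without EAU replicate 2 or 3 too few guide values remained. The 1 fit that passed left out EAU replicate 1, which has no guide value. The sign of the star's own small change turned in 6 of 12 other processings, to between 0.03 and 0.54.

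MiR-21, which inflammatory signals raise in many cell types, rose, and its star differed by less. The guide read -0.45, -0.46 and -0.26 in naive, where it was above the blanks on no array, and 0.44, 1.21 and 0.66 in EAU, where it was on all 3. In the sample channel this is a rise of at least 3.69-fold (adjusted p of the ratio 0.0266). MiR-21* was above the blanks on all 6 arrays and read 0.15, -0.06 and 0.10 in naive and 0.16, 0.48 and 0.40 in EAU, without overlap. Its difference of 0.29 (SE 0.10) did not pass (adjusted p = 0.108). Star minus guide was -0.88 (SE 0.14; adjusted p = 0.0238), which passed in 10 of 11 other processings and ran from -2.41 to -0.83 in them. The call ended when naive replicate 1, naive replicate 2 or EAU replicate 3 was left out (adjusted p = 0.0772, 0.071 and 0.0619). In raw Hy3 signal miR-21* was the brighter of the arms in naive, at 163 to 221 against 54.0 to 69.4, and in EAU it read 202, 450 and 169 against 317, 1621 and 398.

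MiR-145, the miRNA of smooth muscle and pericytes, fell, and its star did not pass. The guide read 0.46, 0.37 and 0.34 in naive and -0.00, -0.09 and -0.08 in EAU (-0.45, SE 0.04; adjusted p = 0.00702). MiR-145* read 0.00, 0.05 and 0.04 in naive and 0.18, 0.34 and 0.03 in EAU. The EAU arrays of the star overlapped the naive ones (0.15, SE 0.08; adjusted p = 0.221). The star's change exceeded the guide's by 0.60 (SE 0.09; adjusted p = 0.02) and passed in 10 of 11 other processings. The call ended with naive replicate 1, naive replicate 2 or EAU replicate 3 left out (adjusted p = 0.0729, 0.0678 and 0.0619).

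MiR-503 rose, from 0.10, -0.09 and 0.11 in naive to 0.42, 0.52 and 0.49 in EAU (0.43, SE 0.06; adjusted p = 0.0179). MiR-503*, the brightest star, read 0.07, -0.04 and -0.17 in naive and -0.32, -0.17 and -0.29 in EAU, an opposite difference that did not pass (-0.21, SE 0.07, adjusted p = 0.104). Its sign was not stable. The difference was 0.66 by median centring, 0.72 where arrays were left as scanned and 0.01 when the sample channel was taken alone. Star minus guide was -0.64 (SE 0.09; adjusted p = 0.0190). It kept its sign in all 11 other processings and passed in 7, but was -0.33 (adjusted p = 0.481) without loess. With naive replicate 1, naive replicate 2 or EAU replicate 3 left out it did not pass (adjusted p = 0.0729, 0.0669 and 0.0619).

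**Figure D4:**
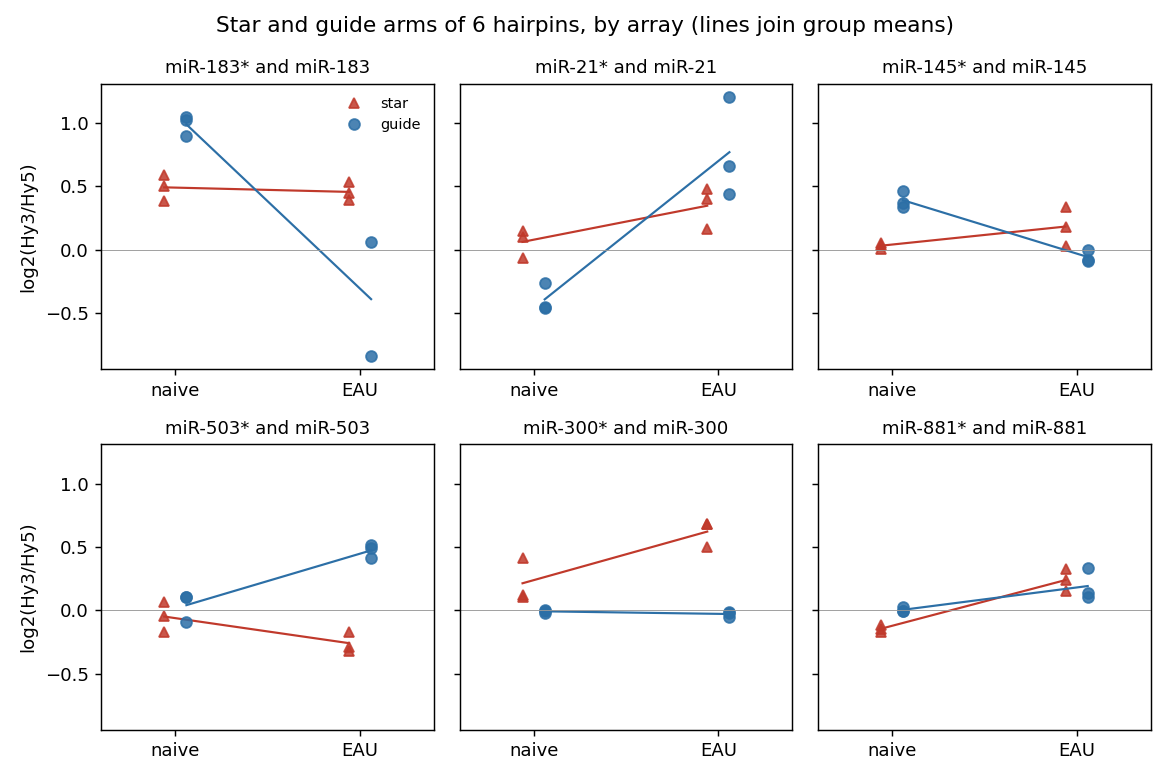
Log2(Hy3/Hy5) of the star (red triangles) and the guide (blue circles) of 6 hairpins on each naive and EAU array; lines join the group means, and miR-183 has 2 EAU values. The guides of miR-183 and miR-145 fall by 1.38 and 0.45 where their stars differ by -0.04 and 0.15, and miR-21 rises by 1.16 against 0.29 for miR-21*.

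In 2 called pairs the star differed by more than the guide. The arms of miR-300 differed by 0.43 (SE 0.10; adjusted p = 0.0475), and the guide, at -0.02, was above the blanks on 4 arrays. This call passed in 2 of 11 other processings and, of the 6 arrays, was kept only without naive replicate 2 (adjusted p = 0.034). Those of miR-881 differed by 0.20 (SE 0.05; adjusted p = 0.0475), also past the threshold in 2 of 11, and lost without any one array (adjusted p = 0.0551 to 0.141).

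Several let-7 and miR-30 guides fell, and the stars paired with them were at or near the level of the blanks. Let-7f fell by 0.60 (SE 0.03; adjusted p = 0.00263), let-7a by 0.66 and let-7g by 0.33. Median centring in place of loess gave -0.15 for let-7f, -0.09 for let-7a and -0.29 for let-7g. None of the 3 passed there (limma, adjusted p = 0.753, 0.838 and 0.360), where only 2 of 595 mouse probes passed. Of 12 other processings, let-7f passed in 9 and let-7a and let-7g in 6 each. Let-7a*, let-7f* and let-7g* were above the blanks on no array and differed by -0.003, -0.01 and 0.01. The arms differed by 0.66 for let-7a (adjusted p = 0.02), 0.59 for let-7f (adjusted p = 0.00071) and 0.34 for let-7g (adjusted p = 0.02). That of let-7f passed without any single array, but median centring gave 0.12 (adjusted p = 0.831), and for let-7a it turned the sign (-0.02). Of the let-7 stars above the blanks on all arrays, let-7d* differed by 0.01 and let-7b* by -0.08, and neither passed (adjusted p = 0.900 and 0.620). MiR-30a fell by 0.75 and miR-30c by 0.57. MiR-30a* (-0.12) and miR-30c-2* (-0.06) were above the blanks on 1 array each and did not pass. Both had an uneven spot on EAU replicates 2 and 3 and on naive replicate 2. On naive replicate 2 the brightest spot read 4.96 and 5.67 times the median of the others. This was the array on which both were above the blanks, so more than 1 spot of each exceeded the blank level. Star minus guide was 0.63 and 0.51 (adjusted p = 0.0381 each). Each of these calls passed in 4 of 10 other processings, and with 1 array left out in 2 of 6 and 1 of 6 fits. With median centring the values were 0.55 and 0.15 (adjusted p = 0.281 and 0.763), and miR-30c itself differed by -0.24. MiR-30b* was bright and read 0.28, 0.22 and 0.34 in naive and 0.29, 0.63 and 0.50 in EAU, where miR-30b differed by -0.87 (adjusted p = 0.0760). That pair differed by 1.07 (SE 0.32) and did not pass (adjusted p = 0.0589).

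The other 6 called pairs had a star minus guide of 0.32 for miR-106b, -0.26 for miR-214, 0.24 for miR-16, 0.24 for miR-378, 0.23 for miR-135a and 0.16 for miR-127, with adjusted p between 0.0190 and 0.0475. In 5 of the 6 the guide had passed the test, all but miR-127, and miR-214 was the one that rose. None of the 6 calls was kept without each array in turn. Of the 6 fits with 1 array left out, miR-378 and miR-135a passed in 3, miR-214 in 2, miR-106b and miR-16 in 1 and miR-127 in 0. All 6 lost the call with median centring (adjusted p = 0.152 to 0.355).

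**Figure D5:**
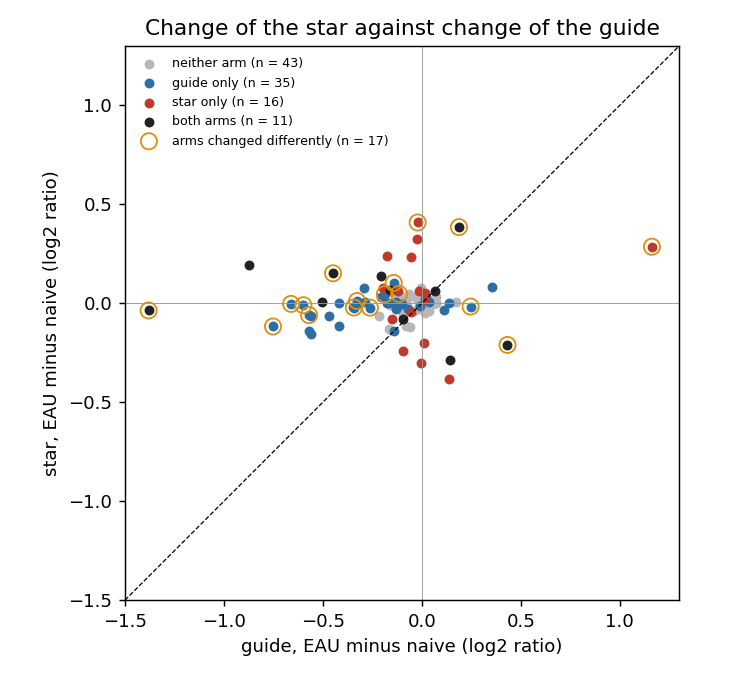
Change of the guide (horizontal) and of the star (vertical), EAU minus naive in log2(Hy3/Hy5), for 105 pairs, coloured by which arm was above the blanks on all 6 arrays; orange rings mark the 17 pairs whose arms changed differently and the dashed line equal change. The points spread along the guide axis, from -1.38 to 1.16, and stay within -0.38 to 0.41 on the star axis.

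Hairpins that lie close together are often transcribed together. Groups were chains of neighbouring hairpins with gaps of at most 10 kb, so a whole group can be longer. In such groups most matched stars were at the level of the blanks, so whether they moved together cannot be read. Of 7 matched stars in the larger Dlk1-Dio3 group, only miR-299* and miR-300* exceeded the blanks on all arrays. They differed by -0.24 and 0.41, and the other 5 were on none. MiR-485* of this region had no matched hairpin and is not counted. It was above the blanks on all arrays and differed by 0.33 (adjusted p = 0.0698). In the neighbouring group of 4 matched stars, miR-433* was above on all arrays and miR-127*, miR-136* and miR-431* on none. Of the 3 matched stars of the miR-290 group of embryonic stem cells, miR-294* was above on all arrays (difference 0.06), and miR-293* and miR-295* on none. No matched star of these 3 groups passed the test, at median differences of -0.03, 0.03 and 0.01.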

How the data were processed

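The authors deposited one scanner file per array with the intensity of 8720 spots in 2 channels, written, per the file headers, by Agilent Feature Extraction 9.1.3.1. They also deposited a table of 1972 linear ratios per array. Its values follow Hy3 over Hy5 of the scanner signals (median correlation 0.936 over 293 bright probes); its column medians were 0.879, 0.851 and 0.769 (naive) and 0.809, 0.886 and 0.807 (EAU), and how it was centred is not given in the sources used here. Of its rows, 36 above 32 on all arrays were left out.

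The mean spot intensity was corrected by normexp with an offset of 50 and normalized by loess within each array, with weight 0 for control spots (limma 3.58.1, R 4.3.3). A probe's 4 spots were averaged without those marked as outliers. No dyes were swapped. EAU was compared with naive by lmFit and eBayes over 595 mouse probes, 2 having too few values. Arm pairs were fitted on the difference of the arms per array. Both fits, of probes and of arm pairs, were tested on simulated data with shifts larger than any star difference found here. The other steps were not tested in this way. Above the blanks means that at least 50% of a probe's spots exceeded the median plus 3 unscaled median absolute deviations of 116 blank and 28 negative-control spots; the scanner's own flag was set for all 105 star probes and separated nothing. A bound ("at least") compares sample-channel means after loess and Aquantile, with an array under the blanks set at the lowest level above them, and is open to dye bias.

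Named are the stars past the threshold, the 12 brightest above the blanks on all arrays, the 6 largest differences each way among stars above the blanks on at least 3 arrays, the 10 largest called pairs, and the guides; others are said to be named after their values. Members and lists were chosen with earlier results of these data known. The arms of star names were assigned by hand to RefSeq names. Samples were harvested independently, per the labels, so p-values measure the spread between harvests, and the number of arrays limits the precision. The labels do not say that replicate numbers pair the samples. Same-numbered samples correlated at 0.19, -0.15 and 0.29, within the range of differently numbered ones (-0.44 to 0.30). So few values cannot exclude a shared step.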

Additional observations from a re-analysis of the deposited data

How the results depend on the processing

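The count of called star probes, 5, depended on most choices: 0 with median centring or with the replicate block, 1 with no normalization, with loess on bright spots, with processed signals or with the median over spots (added after seeing the data), 3 in the sample channel alone, with the filter for probes above the blanks on at least 3 arrays or with all species tested, and 8 with outlier spots kept. Without one replicate it ran from 0 to 7. An offset of 10 gave 6 calls, and 7 came from the deposited values. The calls were not always among the 5. The 1 call with no normalization was miR-300*. The sample channel alone and the filter each kept only miR-881* of the 5. The deposited values also kept only miR-881*, and added let-7d*, miR-30a*, miR-485*, miR-186*, miR-21* and miR-34c*. With all species tested, the 3 calls were all among the 5. The count of called pairs, 17, became 3 with median centring or no normalization, 6 with processed signals, 8 in the deposited table, 11 with the filter, 31 with outlier spots kept and 1 with the replicate block, and 1 to 17 without one replicate. The labels do not say that samples with the same replicate number share a source. The median star difference, -0.0008, was -0.033 with median centring, 0.036 with no normalization, 0.0362 with loess on bright spots, 0.0092 by the sample channel, 0.0727 with processed signals, 0.0587 in the deposited table and 0.0481 with the filter, and -0.0038 to 0.0023 without one replicate. The EAU minus naive difference in star probes above the blanks, 2.33, ran from 0.167 to 5.17 without one replicate and stayed within the spread under the other blank rules. The cause of these shifts was not tested, except that the filter tests fewer probes and leaving out an array fewer samples.

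The difference of some named probes changed sign, mostly of probes near 0 or dim. With median centring these were miR-503* (0.656), miR-138* (0.487), miR-183* (0.476), miR-483* (0.108), miR-200c* (0.0951), let-7g* (-0.0864), miR-138 (0.0176), miR-200b (0.0404), miR-300 (0.113), let-7c (0.479), miR-24 (0.122) and let-7a* minus let-7a (-0.023). With no normalization they were miR-503* (0.725), miR-138* (0.556), miR-183* (0.545), miR-483* (0.177), miR-200c* (0.164), let-7f* (0.0363), let-7g* (-0.0173), miR-138 (0.0867), miR-200b (0.11), miR-99b (0.0375), miR-294 (0.0109), miR-300 (0.182), miR-872 (0.0003), let-7c (0.548), miR-24 (0.191) and let-7a* minus let-7a (-0.023). Loess on bright spots turned the probe of let-7a* (0.0187), let-7f* (0.0136), miR-200b (0.0507), miR-300 (0.0483) and miR-483 (0.0385). The sample channel alone turned miR-31* (0.0268), miR-181a-2* (0.0191), miR-503* (0.0134), miR-433* (-0.757), miR-872* (-0.0137), miR-183* (0.295), miR-200b* (-0.117), miR-99b* (-0.405), miR-483* (0.1999), let-7f* (0.032), let-7g* (-0.0031), miR-200b (0.0298), miR-294 (0.0284), miR-433 (0.097), miR-872 (0.0071) and let-7c (0.0069). An offset of 10 turned miR-183* (0.0327). Processed signals turned miR-138* (0.0542), miR-183* (0.132), miR-200b (0.0336) and let-7c (0.0898). The deposited table turned miR-138* (0.132), miR-183* (0.127), miR-99b* (-0.0184), miR-712* (0.118), miR-200c* (0.194), let-7a* (0.001), miR-485 (0.0386), miR-483 (0.689), let-7c (0.114) and miR-24 (0.068). The median over spots turned miR-138* (0.0521), miR-299 (0.0018) and miR-300 (0.0432). Leaving out one array turned the sign of 7 probes, which ran from -0.0116 to 0.0034 (miR-483), -0.0902 to 0.0119 (miR-183*), -0.0089 to 0.0075 (let-7a*), -0.14 to 0.0517 (miR-138*), -0.0202 to 0.0007 (let-7f*), -0.0089 to 0.033 (miR-200c) and -0.0192 to 0.1755 (miR-99b*).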
